A study of Homo sapiens with 16 samples.

Results

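The genes described here are 31 genes of cholesterol and fatty acid synthesis, chosen by name from the 43388 genes of the deposited table. They make up 7 genes of the mevalonate steps, 11 of the sterol steps, 6 of sterol sensing and transport, 3 of fatty acid synthesis and 4 of desaturation and elongation. RNA was sequenced from cardiomyocytes made from the human induced pluripotent stem cell line WTC11 (hPSC-CMs, wild type), with 4 libraries in each of 4 groups. The first group was collected on Day 16 in standard RPMI/B27. The others were kept from Day 16 to Day 30 in standard RPMI/B27, in RPMI_glcM/B27, which is the same medium with glucose lowered to 5 mM, or in HPLM/B27, a medium with the small molecules of human plasma and a glucose level equal to that of RPMI_glcM. All groups carried the B27 supplement. Each library came from 1 well of a single cell line, and the paper refers to its RNA-seq result as from 1 differentiation. The p-values therefore measure the spread between wells, which may be technical. The deposited design text gives 3 wells per medium, whereas there are 4 labelled replicates in each group, all of which entered the fits.

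Cholesterol is built from acetyl-CoA through mevalonate, isoprenoid units and squalene, which is closed to lanosterol and trimmed to cholesterol. Fatty acids are built from the same acetyl-CoA, which ACLY releases from citrate in the cytosol, and are then lengthened and desaturated. Most genes of both routes are targets of the sterol regulatory element-binding proteins, of which SREBF2 mainly serves the sterol genes and SREBF1 mainly the fatty acid genes. These factors are held in the endoplasmic reticulum by SCAP and the INSIG proteins until sterol falls, and SREBF1 is also a target of the oxysterol receptors (LXR) and of insulin. The heart takes up most of its fatty acids from blood and burns them, and makes little of them itself.

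The upstream sequences of 4 regulators and targets are shown, because SREBF1, INSIG2 and SCD were the members higher in HPLM/B27 than in RPMI/B27, and SREBF2 was the member with a match to the sterol element. Each is the 250 bases before the annotated start in RefSeq (GRCh38.p14), written 5′ to 3′ on the strand of the gene, for SREBF1 at chr17:17836987-17837236 on the minus strand, INSIG2 at chr2:118088221-118088470, SCD at chr10:100346983-100347232 and SREBF2 at chr22:41832855-41833104, the last 3 on the plus strand. Capitals mark matches to the sterol regulatory element TCACNCCAC or the CCAAT box, the latter also read on the other strand as ATTGG, and the matches do not overlap.
SREBF1: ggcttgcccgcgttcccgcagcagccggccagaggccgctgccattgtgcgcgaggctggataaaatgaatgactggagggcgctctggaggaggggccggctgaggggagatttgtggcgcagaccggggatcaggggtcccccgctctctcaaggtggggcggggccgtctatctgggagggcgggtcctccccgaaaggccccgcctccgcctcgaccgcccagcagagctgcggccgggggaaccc
INSIG2: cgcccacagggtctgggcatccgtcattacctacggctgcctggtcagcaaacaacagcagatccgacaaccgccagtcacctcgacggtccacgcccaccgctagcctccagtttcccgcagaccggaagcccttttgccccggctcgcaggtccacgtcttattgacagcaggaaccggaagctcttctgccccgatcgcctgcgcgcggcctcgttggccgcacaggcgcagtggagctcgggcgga
SCD: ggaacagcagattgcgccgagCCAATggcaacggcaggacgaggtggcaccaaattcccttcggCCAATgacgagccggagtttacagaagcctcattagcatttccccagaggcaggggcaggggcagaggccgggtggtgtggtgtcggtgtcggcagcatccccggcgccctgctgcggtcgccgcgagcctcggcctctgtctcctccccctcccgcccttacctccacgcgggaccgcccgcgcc
SREBF2: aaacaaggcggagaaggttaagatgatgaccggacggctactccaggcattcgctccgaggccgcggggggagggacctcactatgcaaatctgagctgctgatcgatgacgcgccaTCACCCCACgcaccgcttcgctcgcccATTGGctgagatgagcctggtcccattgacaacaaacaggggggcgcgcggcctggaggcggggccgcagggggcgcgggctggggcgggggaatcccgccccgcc
The sterol element was searched on both strands in the same window of the 27 members with a RefSeq promoter and was found in 1, SREBF2, at 133 bases before the start, against 1.09% of 27305 genes. A CCAAT box was present in 19 of the 27 members and in 37.0% of all genes, with those of SCD at 229 and 186 bases before the start and that of SREBF2 at 106. An E-box, CACGTG, was found in INSIG1, SC5D and SCAP and in 7.73% of all genes. The windows of SREBF1 and INSIG2 held none of the 3 motifs, which says only that these letters are absent from that window. Only 1 start of each gene is shown, and TPM for a whole gene does not tell which start was used.

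Levels are given as scaled TPM, which is the deposited TPM, transcripts as a share of all transcripts in a library, divided by 1 factor for each library. The factors, medians of ratios over 14918 genes, ranged from 0.718 to 1.31, and the libraries held 7744768 to 16183655 recovered reads. Without the factors the median of all 16122 genes tested was shifted by −0.28, −0.22 and −0.29 on the log2 scale between Day 16 and Day 30 in the order RPMI/B27, RPMI_glcM/B27, HPLM/B27, so counts on the deposited TPM stand beside the counts below. The mitochondrial ribosomal RNA RNR1 ranged from 49.5 to 29276 TPM and was highest in replicates 3 and 4 of Day 30 RPMI/B27. In the summed level of 6 smooth muscle markers, Day 16 replicate 2 (374 scaled TPM) and Day 30 RPMI/B27 replicate 3 (1367) stood apart from the other libraries of their groups (774 to 829 and 346 to 401) and counts are also given without them. Day 30 HPLM/B27 replicate 4 (624) was also above its group (344 to 408), and the counts are given with it left out as well. All 8 cardiomyocyte markers listed were above 1 TPM on average, with a summed level of 9090.5 to 12621 at Day 16 and 9815 to 19419.5, 11958 to 14458 and 12001 to 15437 at Day 30 in the order RPMI/B27, RPMI_glcM/B27, HPLM/B27. In this list too, Day 16 replicate 2 was the lowest of its group (9090.5) and Day 30 RPMI/B27 replicate 3 the highest (19419.5). Which cells differed in these libraries was not tested.

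Of the 31 members, 30 had a mean of at least 1 TPM and were tested. The exception was ACACA, the acetyl-CoA carboxylase that commits acetyl-CoA to fatty acids, with 4 to 32 reads in a library and 0.467 to 0.570 scaled TPM at Day 16. The file lists a second copy of ACACA and of LSS, at 0.0895 scaled TPM or less in every library for the former and at 0 for the latter, so reads of these genes may have been divided or dropped and their levels are uncertain. At Day 16 the highest member was SC5D, which puts a double bond into the sterol ring, at a mean of 159.9 ± 7.01 scaled TPM, followed by SCD, the desaturase that makes oleate, at 135 ± 13.6, and HMGCS1, which makes HMG-CoA, at 96.2 ± 22.1 (SD, n = 4). SCD and SC5D did not overlap between libraries, whereas SCD at its lowest (115) was close to HMGCS1 at its highest (111). The lowest tested members were MVK, mevalonate kinase, at 3.82 ± 1.39 and LSS, the cyclase that makes lanosterol, at 2.67 ± 0.293. TPM is per length of gene, so these levels may be set beside each other, apart from LSS.

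FASN, ELOVL6, ACLY and FADS2 fell between Day 16 and Day 30 in all 3 media. FASN, the fatty acid synthase, was at 40.6, 35.3, 44.8 and 38.0 scaled TPM in the Day 16 libraries, 17.4, 13.3, 25.1 and 14.7 in Day 30 RPMI/B27, 17.9, 19.98, 16.6 and 19.7 in RPMI_glcM/B27 and 16.9, 24.2, 17.7 and 17.9 for HPLM/B27. ELOVL6, which lengthens palmitate to stearate, was at 18.05, 13.3, 20.1 and 20.3 at Day 16, then at 7.35, 5.85, 9.06 and 5.97 in RPMI/B27, 6.06, 5.86, 5.77 and 5.86 in RPMI_glcM/B27 and 5.52, 9.14, 6.25 and 5.89 for HPLM/B27. For both genes the Day 16 libraries lay above every Day 30 library, and the 3 Day 30 groups overlapped.

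**Figure D1:**
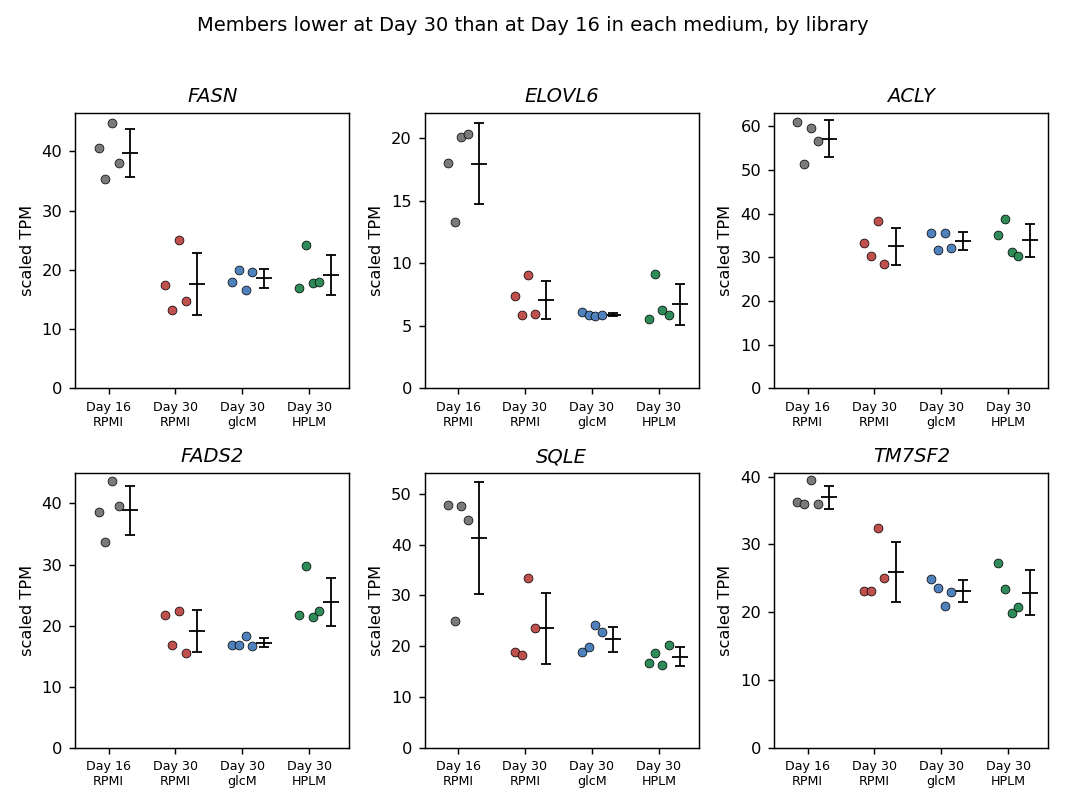
Scaled TPM of 6 members in each of the 16 libraries (points), with the group mean and SD (bars), on axes that start at 0. The 4 Day 16 libraries of FASN lie between 35.3 and 44.8, above all 12 Day 30 libraries, and SQLE shows the low Day 16 replicate 2 at 25.0.

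Of the 30 members tested, 12 passed the threshold in RPMI/B27 (Day 30 minus Day 16), each of them lower, where 17.5% of the 16122 genes were called, 8.91% lower and 8.62% higher. In RPMI_glcM/B27, 14 members were lower and 3 higher, against 14.2% and 13.4% of all genes (27.5% called). In HPLM/B27, 11 were lower and 2 higher, against 12.5% and 12.9% (25.3% called). The median log2 fold change of the members was −0.36, −0.22 and −0.31 in these 3 comparisons, beside 0.00, 0.01 and 0.00 over all genes tested. On the deposited TPM the members called lower and higher numbered 22 and 0 in RPMI/B27, 14 and 1 in RPMI_glcM/B27 and 20 and 2 in HPLM/B27, where 19.9%, 21.1% and 25.4% of all genes were called in either direction. In RPMI/B27 the calls over all genes were also mostly lower in that setting, 2867 lower against 336 higher of the 16122. For the other media the direction over all genes is not given here. The comparisons share the Day 16 libraries, so they are not independent of each other. Without the pair of libraries that stood apart in smooth muscle markers, 21 members were lower and 1 higher in RPMI/B27, 15 lower and 3 higher in RPMI_glcM/B27, and 17 lower and 2 higher in HPLM/B27, beside 23.8%, 30.5% and 28.1% of all genes called in either direction. With HPLM/B27 replicate 4 left out too, 22 were lower and 1 higher in RPMI/B27, 15 lower and 2 higher in RPMI_glcM/B27, and 15 lower and 2 higher in HPLM/B27, beside 23.8%, 30.5% and 25.7%. The pair was also apart in the mevalonate and sterol genes themselves, as given below, so these counts are no independent check.

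The log2 fold change of FASN, computed on scaled TPM + 1, was −1.16 (SE 0.16, limma adjusted p = 0.000138) in RPMI/B27, −1.05 in RPMI_glcM/B27 and −1.02 for HPLM/B27. ELOVL6 changed by −1.24 (SE 0.16, limma adjusted p = 7.55e-05), −1.44 and −1.30. ACLY, the citrate lyase that supplies cytosolic acetyl-CoA, went from a mean of 57.2 ± 4.19 scaled TPM to 32.6 ± 4.24, 33.7 ± 2.13 and 33.9 ± 3.88 (SD, n = 4), and its log2 fold changes of −0.80, −0.74 and −0.74 all passed the threshold. All 3 of these genes kept their calls under every alternative setting and with any single library left out. FADS2, the delta-6 desaturase of polyunsaturated fatty acids, was at 33.8 to 43.6 scaled TPM at Day 16. No Day 30 library reached this range, with 15.5 to 22.4 in RPMI/B27, 16.7 to 18.4 in RPMI_glcM/B27 and 21.4 to 29.7 for HPLM/B27. Its log2 fold change had a 95% interval of −1.26 to −0.73 in RPMI/B27 (limma adjusted p = 5.79e-05) and was −1.13 in RPMI_glcM/B27 and −0.69 for HPLM/B27, all past the threshold. FADS1, the delta-5 desaturase that lies beside it in the genome, fell by a smaller amount in RPMI/B27 (−0.37, limma adjusted p = 0.0213), a call that was lost without Day 16 replicate 3, Day 30 replicate 2 or Day 30 replicate 3 (adjusted p = 0.051 to 0.0596). In the other media the FADS1 values were −0.20 and −0.11 and did not pass the threshold.

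SCD was lower at Day 30 than at Day 16 in RPMI/B27 and RPMI_glcM/B27 and did not pass the threshold in HPLM/B27. Its level was 144, 115, 143 and 139 scaled TPM in the Day 16 libraries and 65.5, 53.9, 75.5 and 59.3 in Day 30 RPMI/B27. In RPMI_glcM/B27 it was 88.3, 88.6, 76.3 and 99.2, and in HPLM/B27 95.95, 132, 109.9 and 98.7. The lowest Day 16 library lay above all RPMI/B27 and RPMI_glcM/B27 libraries, and within the range of the HPLM/B27 libraries. The log2 fold changes from Day 16 were −1.08 (SE 0.12, limma adjusted p = 2.36e-05), −0.61 (adjusted p = 0.00163) and −0.31 (adjusted p = 0.0753), the last of which did not pass the threshold, though it did without Day 16 replicate 2 (adjusted p = 0.0363), without HPLM/B27 replicate 2 (adjusted p = 0.0235), by limma-voom on reads (adjusted p = 0.0437) and on the deposited TPM (−0.65, adjusted p = 0.00916).

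Of the 11 genes of the sterol steps, 3 were lower at Day 30 in RPMI/B27, 6 in RPMI_glcM/B27 and 5 for HPLM/B27, and none was higher. Of all genes tested, 8.91%, 14.2% and 12.5% were lower in the same order. SC5D was at 161, 169, 158 and 152 scaled TPM in the Day 16 libraries and 104, 103, 82.5 and 92.4 in Day 30 RPMI/B27. In RPMI_glcM/B27 its libraries were at 71.1, 66.6, 61.0 and 60.7 and in HPLM/B27 at 65.3, 72.9, 73.6 and 64.5. The Day 16 libraries were highest, those of RPMI/B27 lay between, and those of both media with 5 mM glucose were lowest, with no overlap between these 3 levels. The log2 fold changes from Day 16 were −0.74 (limma adjusted p = 1.5e-05), −1.29 (adjusted p = 4.87e-08) and −1.20 (adjusted p = 8.95e-08), and the calls held under every setting tried.

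SQLE, squalene epoxidase, a rate-limiting enzyme of the sterol steps, spanned 25.0 to 47.8 scaled TPM at Day 16. At Day 30 it spanned 18.3 to 33.4 in RPMI/B27, 18.8 to 24.1 in RPMI_glcM/B27 and 16.2 to 20.2 for HPLM/B27, and only the RPMI/B27 libraries overlapped those of Day 16. Its log2 fold changes of −0.78, −0.88 and −1.12 passed the threshold, and the first was lost without Day 16 replicate 1 or 3 (limma adjusted p = 0.0508 to 0.0515) and with only these 2 groups in the fit (adjusted p = 0.0832). TM7SF2, a sterol C14 reductase, fell by 0.51, 0.65 and 0.68 on the log2 scale in the same order and kept each call. FDFT1, which makes squalene, fell in RPMI_glcM/B27 (−0.65) and HPLM/B27 (−0.53), and its −0.25 in RPMI/B27 missed the threshold (limma adjusted p = 0.0751). MSMO1, a C4 methyl sterol oxidase, likewise passed in RPMI_glcM/B27 (−0.71) and HPLM/B27 (−0.94) and was at −0.54 in RPMI/B27 (adjusted p = 0.0727). EBP, a sterol isomerase, passed only in RPMI_glcM/B27 (−0.47, limma adjusted p = 0.0394), and this call was lost without Day 16 replicate 3 or 4 or RPMI_glcM/B27 replicate 3 or 4 (adjusted p = 0.0947 to 0.118). LSS, CYP51A1, NSDHL, HSD17B7 and DHCR7, which act at other steps between squalene and cholesterol, passed in none of the 3 comparisons, with log2 fold changes from −0.56 for HSD17B7 in HPLM/B27 to 0.19 for NSDHL in RPMI_glcM/B27.

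Among the mevalonate genes, MVD, the decarboxylase that makes isopentenyl diphosphate, was called in each medium. It spanned 14.1 to 17.7 scaled TPM at Day 16 and 7.22 to 13.6, 9.61 to 12.0 and 6.78 to 13.5 at Day 30 in the order RPMI/B27, RPMI_glcM/B27, HPLM/B27, without overlap, with log2 fold changes of −0.64, −0.56 and −0.64. These calls rested on 61 to 170 reads a library, and single libraries decided them. The one in RPMI/B27 was lost without Day 16 replicate 1 or 4 or Day 30 replicate 1 or 4 (limma adjusted p = 0.0639 to 0.0893), and the one in HPLM/B27 without Day 16 replicate 1 or HPLM/B27 replicate 3 (0.055 to 0.0647). The one in RPMI_glcM/B27 was lost without any of 6 libraries, Day 16 replicates 1, 2 and 4 and RPMI_glcM/B27 replicates 1, 2 and 3 (limma adjusted p = 0.0515 to 0.0939), and in the fit with a replicate block (adjusted p = 0.0595). PMVK, phosphomevalonate kinase, was the mevalonate gene that rose, in RPMI_glcM/B27 (0.47, limma adjusted p = 0.0442), but the call was lost without any Day 16 library or RPMI_glcM/B27 replicate 2 or 4 (adjusted p = 0.0546 to 0.133), with the block (0.0598) and on the deposited TPM (0.31). FDPS, which makes farnesyl diphosphate, fell in RPMI_glcM/B27 (−0.68, limma adjusted p = 0.00182). ACAT2, HMGCS1, MVK and IDI1 did not pass in any medium, with log2 fold changes between −0.81 (ACAT2, RPMI_glcM/B27) and −0.01 (IDI1, RPMI_glcM/B27).

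Further members passed when a single library was left out. Day 16 replicate 2 was low, and Day 30 RPMI/B27 replicate 3 and HPLM/B27 replicate 2 were high, for most mevalonate and sterol genes, as given below. Leaving such a library out widens the falls of these genes, so the added calls are no independent check. The share of all genes called in those fits is not given here. Without Day 16 replicate 2, HSD17B7, a keto reductase of the sterol steps, passed in each medium, RPMI/B27 (−0.62, limma adjusted p = 0.0182), RPMI_glcM/B27 (−0.48, 0.0422) and HPLM/B27 (−0.82, 0.00222). ACAT2, which condenses acetyl-CoA, then passed in RPMI_glcM/B27 (−1.12, limma adjusted p = 0.0111) and HPLM/B27 (−0.96, 0.0268), and HMGCS1 (−0.66, 0.0226), IDI1, the isopentenyl diphosphate isomerase (−0.45, 0.00877) and FDPS (−0.42, 0.0478) in HPLM/B27. In RPMI/B27, MVK (−0.58, limma adjusted p = 0.0397), FDFT1 (−0.31, 0.03), MSMO1 (−0.73, 0.00785) and DHCR7, the last enzyme of a route to cholesterol (−0.42, 0.0439), passed. Without Day 30 RPMI/B27 replicate 3, ACAT2 (−0.86, limma adjusted p = 0.0496), LSS (−0.50, 0.035), EBP (−0.50, 0.0429) and DHCR7 (−0.43, 0.0356) were lower, and STARD4 higher (0.28, 0.0362), in RPMI/B27. Without HPLM/B27 replicate 2, HMGCS1 (−0.64, limma adjusted p = 0.0392) and INSIG1 (−0.37, 0.0402) were lower in HPLM/B27 than at Day 16.

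**Figure D2:**
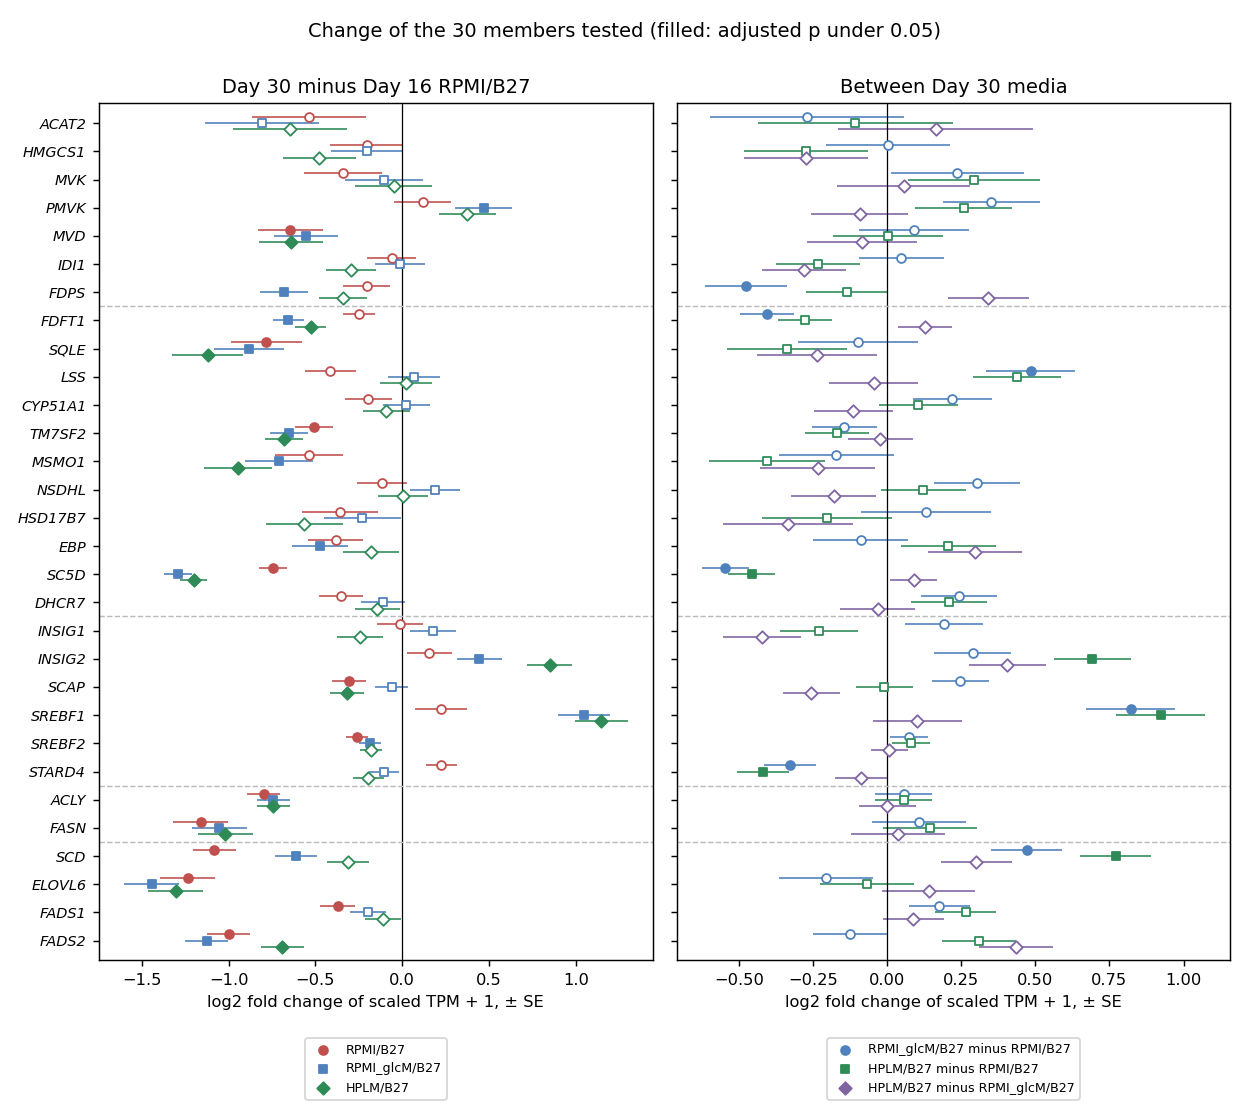
Log2 fold change of scaled TPM + 1, with its SE, for the 30 members tested, from Day 16 to Day 30 in each medium (left) and between the Day 30 media (right); filled symbols passed the threshold of 0.05 and dashed lines divide the groups of genes by role. FASN, ELOVL6, ACLY and SC5D lie well below 0 in all 3 media on the left, while SREBF1, INSIG2 and SCD lie above 0 on the right.

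At the RNA level SREBF1, the factor of the fatty acid genes, did not fall with them. It was at 5.51, 7.55, 6.39 and 6.09 scaled TPM in the Day 16 libraries and 8.92, 8.79, 4.99 and 8.38 in Day 30 RPMI/B27. In RPMI_glcM/B27 it was at 13.1, 14.8, 13.0 and 16.0 and in HPLM/B27 at 14.7, 14.8, 18.6 and 13.4. Every library with 5 mM glucose lay above every library of standard RPMI/B27, of either day, and the RPMI/B27 groups of both days overlapped. From Day 16 the log2 fold change was 1.05 (SE 0.15, limma adjusted p = 0.000121) in RPMI_glcM/B27 and 1.15 (adjusted p = 5.47e-05) in HPLM/B27, and in RPMI/B27 it was 0.23 (adjusted p = 0.345). Without Day 30 RPMI/B27 replicate 3, the lowest SREBF1 library at 4.99, that last value became 0.40 and passed (limma adjusted p = 0.0231). SREBF2, the factor of the sterol genes, spanned 39.9 to 46.4 scaled TPM at Day 16 and 33.2 to 36.8 in Day 30 RPMI/B27 (−0.26, limma adjusted p = 0.0114), a call lost with only the 2 groups in the fit (adjusted p = 0.0539) and with RNR1 as a covariate (0.0718). Its −0.19 in RPMI_glcM/B27 (limma adjusted p = 0.0432) was lost without Day 16 replicate 1 or 2 or RPMI_glcM/B27 replicate 2, 3 or 4 (adjusted p = 0.0569 to 0.13), and its −0.18 in HPLM/B27 (adjusted p = 0.0542) passed with the replicate block (adjusted p = 0.0396) and without Day 16 replicate 4 (0.0405) or HPLM/B27 replicate 1 (0.0472).

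INSIG2, a retention protein whose gene is itself no strong SREBP target in most tissues, rose from Day 16 in the media with 5 mM glucose. It was at 21.7, 23.2, 25.1 and 24.9 scaled TPM at Day 16 and 25.3, 25.6, 25.8 and 29.6 in Day 30 RPMI/B27. The RPMI_glcM/B27 libraries were at 30.1, 35.2, 30.2 and 35.2 and those of HPLM/B27 at 39.1, 32.8, 56.9 and 48.7. All 8 libraries with 5 mM glucose exceeded the 8 of standard RPMI/B27, by as little as 30.1 against 29.6, and HPLM/B27 had the widest spread. At Day 30 the difference of INSIG2 between RPMI_glcM/B27 and RPMI/B27, which differ in glucose alone, did not pass the threshold. From Day 16 the log2 fold change was 0.44 in RPMI_glcM/B27 (limma adjusted p = 0.0192) and 0.85 in HPLM/B27 (adjusted p = 0.000212). The former was lost without Day 16 replicate 1 or RPMI_glcM/B27 replicate 2 or 4 (adjusted p = 0.055 to 0.0575) and on the deposited TPM (0.429). INSIG1, the other retention protein and a direct SREBP target, passed in none of these comparisons, with means of 21.6 ± 2.62, 21.4 ± 2.77, 24.4 ± 1.85 and 18.2 ± 3.91 scaled TPM in the order of the groups. SCAP, the sterol sensor that escorts the SREBPs, was lower in RPMI/B27 (−0.31, limma adjusted p = 0.0399) and HPLM/B27 (−0.32, adjusted p = 0.0256). With 1 library left out, the former held only where that was Day 30 replicate 3 (otherwise limma adjusted p = 0.0524 to 0.127), and the latter was lost without Day 16 replicate 1 or 4 or HPLM/B27 replicate 2 or 4 (0.0598 to 0.0802).

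The comparison of RPMI_glcM/B27 with RPMI/B27 at Day 30 addresses the glucose level alone. In it, 3 members were higher (SREBF1, SCD and LSS) and 4 lower (SC5D, FDFT1, FDPS and STARD4), against 6.17% and 5.89% of all genes tested (12.1% called in all). The median log2 fold change was 0.08 over the members and −0.01 over all genes. On the deposited TPM no member passed, where 2.2% of all genes did. The same values without the factors were 0.88 for SREBF1 (limma adjusted p = 0.052), 0.54 for SCD (0.101), −0.47 for SC5D (0.255) and −0.33 for FDFT1 (0.391), each in the same direction, and 8 members had an unadjusted p under 0.05 there. By limma-voom on the recovered reads 6 members passed. No share of all genes is given beside that count or the 8, so neither sets the members apart from other genes. Without RPMI/B27 replicate 4, RPMI_glcM/B27 replicate 2 or RPMI_glcM/B27 replicate 4, the 7 calls fell to 3, those of SREBF1, SC5D and FDFT1. Without the pair of libraries that stood apart in smooth muscle markers 5 members were higher and 3 lower, beside 16.3% of all genes, and with HPLM/B27 replicate 4 left out too 5 were higher and 4 lower, beside 16.2%. Without RPMI/B27 replicate 3, PMVK also passed (0.50, limma adjusted p = 0.0437). That library was the highest of its group for PMVK, so leaving it out widens the difference.

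SREBF1 rose by 0.82 on the log2 scale (SE 0.15, 95% interval 0.50 to 1.14, limma adjusted p = 0.003) and SCD by 0.47 (SE 0.12, 95% interval 0.21 to 0.73, adjusted p = 0.021). SREBF1 kept its call without any single library, and SCD lost it without RPMI/B27 replicate 2 or 4 or RPMI_glcM/B27 replicate 2 or 4 (limma adjusted p = 0.0508 to 0.0669). SC5D fell by 0.55 (SE 0.08, limma adjusted p = 0.00063) with every library of RPMI_glcM/B27 below every library of RPMI/B27. FDFT1 was at 52.2, 45.9, 58.0 and 53.7 scaled TPM at Day 16, 45.4, 43.8, 44.2 and 42.0 in RPMI/B27, 31.3, 34.2, 35.4 and 30.6 in RPMI_glcM/B27 and 37.1, 41.7, 35.9 and 30.0 for HPLM/B27. It was lower in every RPMI_glcM/B27 library than in any of RPMI/B27, with a log2 difference of −0.41 (SE 0.09, limma adjusted p = 0.00994).

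The remaining 3 calls were weaker. FDPS was at 14.5, 15.1, 22.8 and 17.8 scaled TPM in RPMI/B27, 12.4, 10.1, 13.3 and 13.0 in RPMI_glcM/B27, 18.3, 15.9, 15.4 and 13.3 in HPLM/B27 and 19.7, 16.97, 21.6 and 22.4 at Day 16. The RPMI_glcM/B27 libraries lay below those of RPMI/B27 and, by a narrow margin, those of HPLM/B27. The difference from RPMI/B27 of −0.48 (limma adjusted p = 0.0354) was lost without RPMI/B27 replicate 3 or 4 or RPMI_glcM/B27 replicate 1, 2 or 4 (adjusted p = 0.0552 to 0.108), and processed pseudogenes of FDPS in the table may take part of its reads. LSS was at 1.60, 1.42, 2.29 and 1.76 in RPMI/B27, 2.63, 2.73, 2.77 and 3.26 in RPMI_glcM/B27, 1.81, 3.79, 3.00 and 2.56 in HPLM/B27 and 2.43, 3.09, 2.55 and 2.59 at Day 16, from 36 to 92 reads a library. The RPMI_glcM/B27 libraries lay above those of RPMI/B27, and those of HPLM/B27 overlapped both. LSS was higher in RPMI_glcM/B27 by 0.48 on the log2 scale (limma adjusted p = 0.0477), a call that, with 1 library left out, held only where that was RPMI/B27 replicate 3 (otherwise adjusted p = 0.0702 to 0.122) and was lost with the replicate block (0.0509).

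STARD4, a carrier of cholesterol between membranes and an SREBP2 target, was at 21.7, 20.6, 18.3 and 22.7 scaled TPM in RPMI/B27, 17.3, 15.5, 18.2 and 14.6 in RPMI_glcM/B27, 14.5, 17.1, 15.7 and 14.0 in HPLM/B27 and 19.2, 16.1, 17.5 and 17.8 at Day 16. The RPMI/B27 libraries were above all those with 5 mM glucose at Day 30, and overlapped those of Day 16. The difference was −0.33 in RPMI_glcM/B27 (limma adjusted p = 0.0248) and was lost without RPMI/B27 replicate 1 or 4 or RPMI_glcM/B27 replicate 2 or 4 (adjusted p = 0.0614 to 0.0776) and on the deposited TPM (0.518). The antisense gene STARD4-AS1 was at 75.3 to 119.9, 78.1 to 93.3 and 57.9 to 71.4 scaled TPM in these Day 30 groups, and since the strand setting of the counting is not stated in the sources used here, reads of the pair may not be fully told apart.

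**Figure D3:**
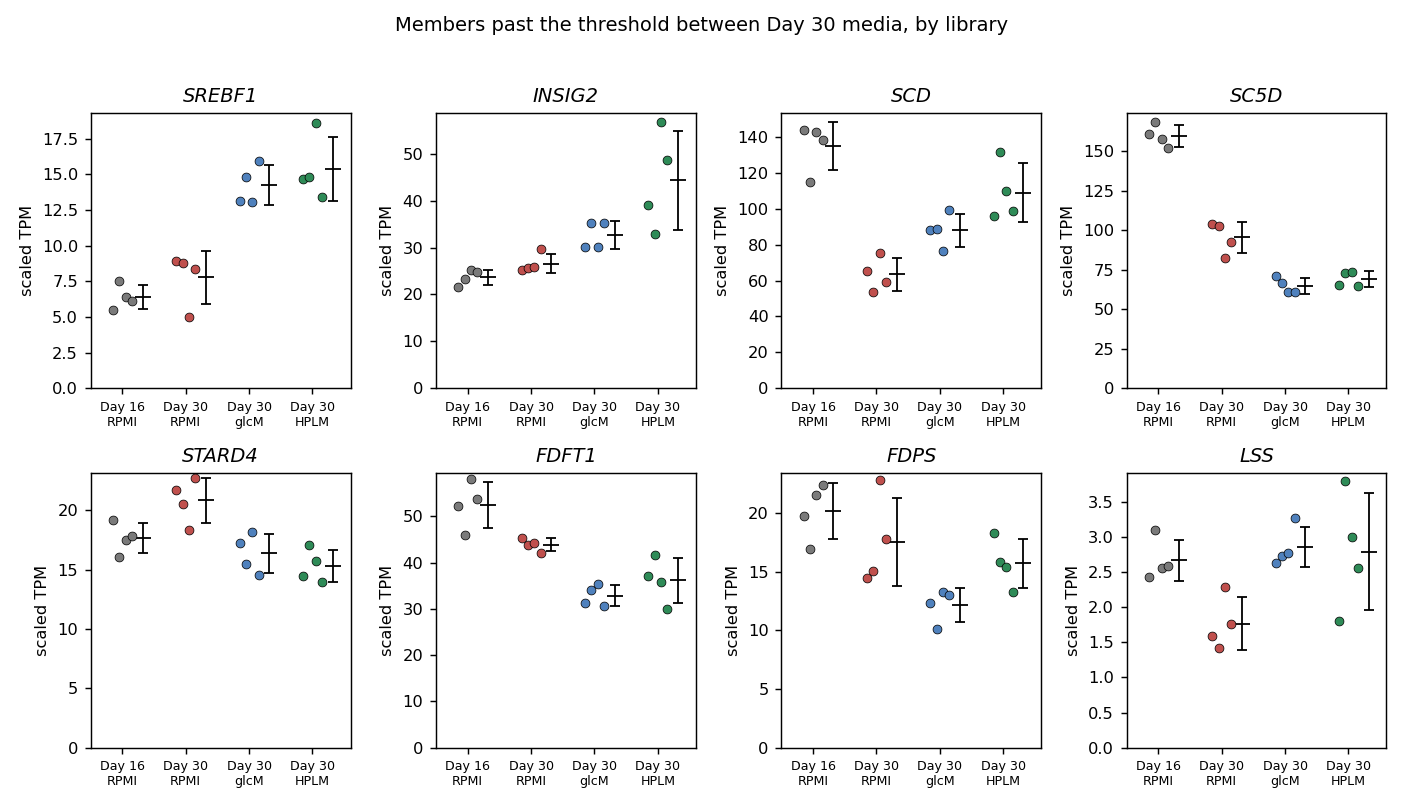
Scaled TPM of the 8 members that passed the threshold between Day 30 media, in each of the 16 libraries (points), with the group mean and SD (bars), on axes that start at 0. SREBF1 and INSIG2 are higher in all 8 libraries with 5 mM glucose than in the 8 of standard RPMI/B27, and SC5D is lowest in the libraries with 5 mM glucose. INSIG2 did not pass the threshold between RPMI_glcM/B27 and RPMI/B27.

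Against RPMI/B27, HPLM/B27 had 3 members higher (SREBF1, SCD and INSIG2) and 2 lower (SC5D and STARD4), beside 7.05% and 5.87% of all genes tested (12.9% called in all). On the deposited TPM the 3 higher members were called and the 2 lower ones were not, where 2.41% of all genes passed. The median log2 fold change was 0.03 over the members and −0.01 over all genes. SREBF1 was higher by 0.92 (SE 0.15, 95% interval 0.60 to 1.24, limma adjusted p = 0.00111), SCD by 0.77 (SE 0.12, 95% interval 0.51 to 1.03, adjusted p = 0.000865) and INSIG2 by 0.69 (SE 0.13, 95% interval 0.41 to 0.97, adjusted p = 0.00295). Each of these genes was higher in all 4 HPLM/B27 libraries than in any RPMI/B27 library and kept its call under every alternative and with any library left out. The log2 differences of SC5D and STARD4 were −0.46 (limma adjusted p = 0.00174) and −0.42 (adjusted p = 0.00583), and on the deposited TPM their values were −0.46 (adjusted p = 0.269) and −0.42 (0.239). Without the pair of libraries that stood apart in smooth muscle markers, MVK (0.46), LSS (0.52) and FADS2 (0.39) were also called higher, which made 8 members in all, beside 18.9% of all genes. With HPLM/B27 replicate 4 left out too, LSS (0.54) and FADS1 (0.31) were added to the 3 higher and 2 lower members, beside 16.3%. LSS also passed without HPLM/B27 replicate 1 (0.57, limma adjusted p = 0.016) or RPMI/B27 replicate 3 (0.52, 0.0343), FDFT1 (−0.35, 0.0235) and MSMO1 (−0.61, 0.0311) without HPLM/B27 replicate 2, and FADS1 (0.36, 0.0229) without HPLM/B27 replicate 4. For each gene the library left out lay against the difference, so these added calls are no independent check. This comparison shares the RPMI/B27 libraries with the preceding one, so their common direction for SREBF1, SCD, SC5D and STARD4 is not a second observation.

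FASN and ACLY, the tested enzymes of fatty acid synthesis, passed the threshold in no comparison between Day 30 media, and ACACA was not tested. FASN was at 0.11 (95% interval −0.23 to 0.44) in RPMI_glcM/B27 and 0.14 (−0.20 to 0.48) in HPLM/B27 against RPMI/B27, and ACLY at 0.06 (−0.15 to 0.26) and 0.06 (−0.15 to 0.26). ELOVL6, of the desaturation and elongation genes, was at −0.21 (−0.55 to 0.13) and −0.07 (−0.41 to 0.27) and did not pass either. The intervals of FASN, ACLY and ELOVL6 each hold 0. No test compared these genes with SREBF1, which was measured as RNA, and the activity of its protein was not measured. SCD, also of the desaturation and elongation genes, did rise with SREBF1 in both comparisons against RPMI/B27, as given above. Its call in RPMI_glcM/B27 was lost under some settings. FADS1 and FADS2 did not pass with all libraries in the fit.

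HPLM/B27 and RPMI_glcM/B27, which share their glucose level and differ in the other components, had 0 members called by limma, beside 1.63% of all genes tested. At an unadjusted p under 0.05 there were 6 members, limma-voom on the reads also called 0, as did limma on the deposited TPM (0.0682% of all genes), and the log2 fold changes ran from −0.42 for INSIG1 to 0.44 for FADS2. The share of all genes at that unadjusted p is not given here, so the 6 are not set apart from other genes. FADS2 was at 21.4 to 29.7 scaled TPM in the HPLM/B27 libraries and 16.7 to 18.4 in those of RPMI_glcM/B27, without overlap (SE 0.12, limma adjusted p = 0.104). INSIG2 was at 0.40 in HPLM/B27 against RPMI_glcM/B27 (95% interval 0.13 to 0.68, adjusted p = 0.157) and INSIG1 was at −0.42 (−0.70 to −0.14, adjusted p = 0.141), so the values of the pair of retention proteins lay on opposite sides of 0. When HPLM/B27 replicate 2 was left out, these 2 genes passed the threshold, INSIG2 at 0.54 (limma adjusted p = 0.0298) and INSIG1 at −0.54 (adjusted p = 0.0379). That library was the lowest of its group for INSIG2 and the highest for INSIG1, so leaving it out widens both differences. SREBF1 differed by 0.10 (−0.22 to 0.42) and SCD by 0.30 (0.04 to 0.56, adjusted p = 0.274).

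Further genes of these pathways were taken from 4 lists. Of 14 tested sterol pathway and SREBP genes outside the members, 4 were lower in RPMI/B27, 6 in RPMI_glcM/B27 and 4 with HPLM/B27 at Day 30 than at Day 16, and none was higher, beside 8.91%, 14.2% and 12.5% of all genes tested that were lower. Between Day 30 media the smallest adjusted p belonged to LPIN1, a phosphatidate phosphatase, higher by 0.33 in RPMI_glcM/B27 (limma adjusted p = 0.00474) and 0.28 in HPLM/B27 (0.00996) than in RPMI/B27. ACSS2, which makes acetyl-CoA from acetate, was higher in RPMI_glcM/B27 (0.28, limma adjusted p = 0.0299), and NPC1, which exports cholesterol from lysosomes, missed the threshold in HPLM/B27 (0.31, adjusted p = 0.0555).

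Of 12 tested lipogenic genes outside the members, 2 were lower in RPMI/B27, 6 in RPMI_glcM/B27 and 5 with HPLM/B27 at Day 30 than at Day 16, and 0, 1 and 1 were higher, beside the same shares of all genes lower and 8.62%, 13.4% and 12.9% higher. ME1, the malic enzyme that makes NADPH for synthesis, had means of 23.0 ± 1.70 scaled TPM at Day 16 and 25.7 ± 1.30, 15.6 ± 1.82 and 19.9 ± 0.947 at Day 30 in the order RPMI/B27, RPMI_glcM/B27, HPLM/B27 (SD, n = 4). Against RPMI/B27 its log2 difference was −0.69 in RPMI_glcM/B27 (limma adjusted p = 0.000113) and −0.35 in HPLM/B27 (0.00974), and it was the listed gene that also differed between HPLM/B27 and RPMI_glcM/B27, by 0.34 (adjusted p = 0.048). ELOVL5, which lengthens polyunsaturated fatty acids, was lower in RPMI_glcM/B27 (−0.41, limma adjusted p = 0.0036) and HPLM/B27 (−0.38, 0.00494). HSD17B12, a reductase of the elongation cycle, was lower in RPMI_glcM/B27 (−0.34, limma adjusted p = 0.003). On the deposited TPM no gene of this list passed between Day 30 media, with the smallest limma adjusted p for ME1 in RPMI_glcM/B27 (0.0579).

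Of 8 tested genes of sterol efflux and LXR signalling, 3 were higher in HPLM/B27 than in RPMI/B27 and 1 in RPMI_glcM/B27, beside 7.05% and 6.17% of all genes tested. MYLIP, an LXR target that degrades the LDL receptor, was higher in RPMI_glcM/B27 (0.55, limma adjusted p = 0.0157) and HPLM/B27 (0.43, 0.0472). NR1H2, the widely expressed LXR, was higher in HPLM/B27 (0.35, limma adjusted p = 0.0283), as was ABCA5, a lipid transporter (0.42, 0.0256). The other LXR, NR1H3, had lower means in RPMI_glcM/B27 (0.970 scaled TPM) and HPLM/B27 (1.11) than in RPMI/B27 (1.66). It had 8 to 40 reads a library and is given by its means only. On the deposited TPM none of the sterol pathway, efflux and LXR genes outside the members passed between Day 30 media, with the smallest limma adjusted p for MYLIP in RPMI_glcM/B27 (0.101). Of 6 tested genes of the isoprenoid side branches to ubiquinone, dolichol and farnesylation, none passed between Day 30 media by limma, with 3 and 2 at an unadjusted p under 0.05 in RPMI_glcM/B27 and HPLM/B27. The share of all genes at that unadjusted p is not given here.

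Wells of 1 group differed in these genes together. Of the 18 mevalonate and sterol genes, Day 16 replicate 2 was the lowest library of its group for 14, against 33.9% of all genes tested. Day 30 RPMI/B27 replicate 3 was the highest for 15 of the 18, against 31.7%, and HPLM/B27 replicate 2 for 12, against 25.8%, as well as for all 6 tested genes of fatty acid synthesis, desaturation and elongation. Of these 6, Day 16 replicate 2 was the lowest of its group for 5 and Day 30 RPMI/B27 replicate 3 the highest for 5. The median deviation of the 18 genes from their group mean was −0.23, 0.34 and 0.25 on the log2 scale in these libraries, where that of all genes was 0.00 to 2 decimals. Not every gene followed in every library. In Day 16 replicate 2, SC5D (169 scaled TPM) and LSS (3.09) were at their highest of that group. In Day 30 RPMI/B27 replicate 3, SC5D (82.5), FADS1 (41.1) and the regulator SREBF1 (4.99) were at their lowest of that group. The 4 libraries of RPMI_glcM/B27 were close to each other, with median deviations of −0.03 to 0.08.

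**Figure D4:**
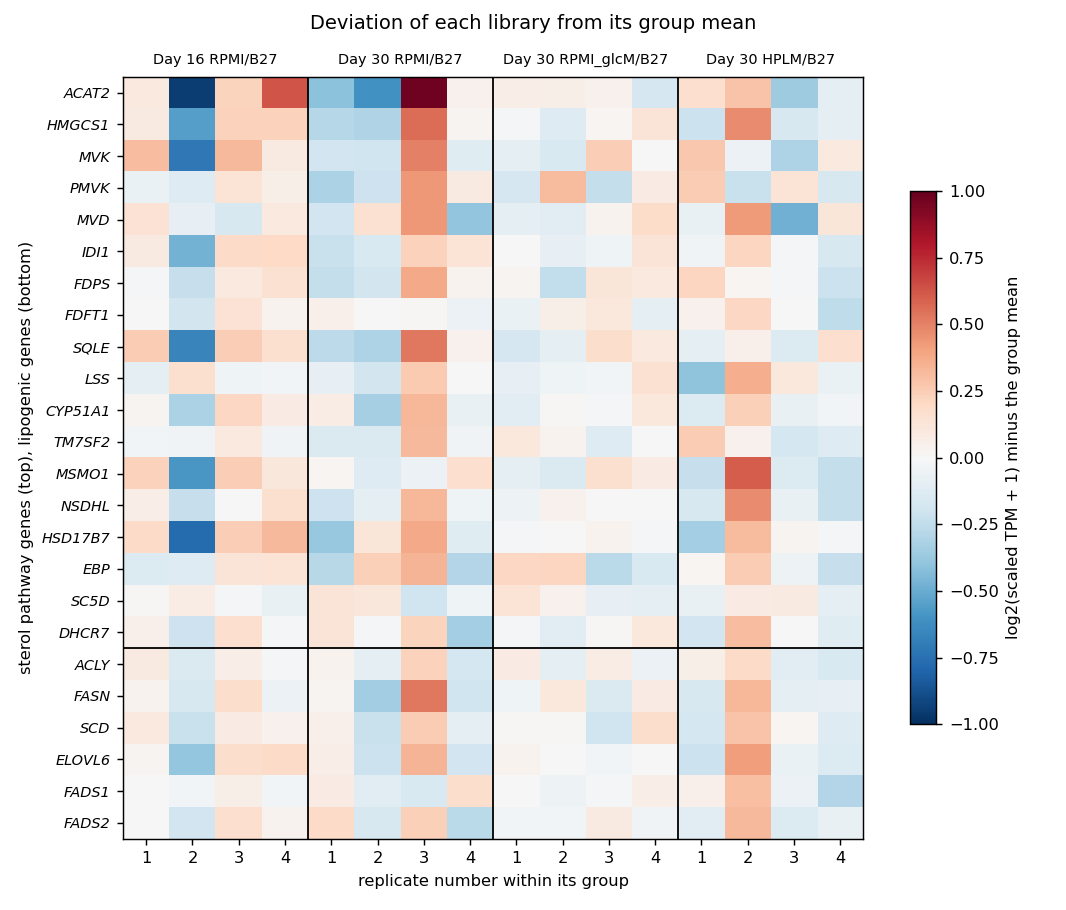
Deviation of log2(scaled TPM + 1) from the group mean for the 18 mevalonate and sterol genes (top) and the 6 tested fatty acid genes (bottom) in each of the 16 libraries; red is above the group mean and blue below. Day 16 replicate 2 is mostly blue, and Day 30 RPMI/B27 replicate 3 and HPLM/B27 replicate 2 are mostly red, with medians over the 18 genes of −0.23, 0.34 and 0.25.

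Genes of other cell types moved with the same contrasts. Of 12 markers of hepatic endoderm, the precursor of the liver, 10 were tested. Of these, 6 were lower and 1 higher at Day 30 in RPMI/B27 than at Day 16, 9 were lower and 1 higher in each of the media with 5 mM glucose, and 8 and 9 were lower in RPMI_glcM/B27 and HPLM/B27 than in RPMI/B27. The summed level of the 12 was 358 to 704 scaled TPM at Day 16 and 458 to 497, 96.9 to 242 and 80.0 to 211 at Day 30 in the order RPMI/B27, RPMI_glcM/B27, HPLM/B27. The largest part at Day 16 was AFP, alpha-fetoprotein, at 235 to 493, and in Day 30 RPMI/B27 ALB, albumin, at 227 to 271. Of 6 tested fibroblast markers, 2, 5 and 4 were lower and 1, 1 and 0 higher at Day 30 than at Day 16, in the order RPMI/B27, RPMI_glcM/B27, HPLM/B27. At Day 30, 4 were lower in each medium with 5 mM glucose than in RPMI/B27, and the summed level of all 8 listed was 229 to 333 at Day 16, 193 to 266 in RPMI/B27, 135 to 155 in RPMI_glcM/B27 and 136 to 197 for HPLM/B27. Beside both lists, 8.91%, 14.2% and 12.5% of all genes tested were lower than at Day 16 in the same order of media. Another 8.62%, 13.4% and 12.9% were higher. Against RPMI/B27 at Day 30, 5.89% were lower in RPMI_glcM/B27 and 5.87% in HPLM/B27. Of 6 endothelial markers 1 was tested, the VEGF receptor KDR, and it was lower than at Day 16 in each medium (−0.97, −0.94 and −0.53, limma adjusted p = 0.000298, 0.000225 and 0.014, in the same order). The summed level of all 6 was 36.9 to 46.2 scaled TPM at Day 16 and 17.4 to 28.1, 18.6 to 24.1 and 21.6 to 35.0 at Day 30. The smooth muscle marker MYH11 was listed at 0 in every library, and the pluripotency markers POU5F1 and NANOG reached at most 0.149 and 0.0602. The part of these cells in the falls of the lipid genes was not tested, and in such bulk samples fewer cells of a type and less RNA per cell cannot be told apart.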

How the data were processed

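RNA-seq libraries from WTC11 hPSC-CMs were analysed, 4 in each of 4 groups, grouped by their labels. The authors deposited 1 table of TPM for 43388 genes, summing to 1e+06 in every library. The submitters' processing notes name STAR 2.5.3a, featureCounts 2.0.3 and R 4.1.3, and the annotation and the strand setting are not given in the sources used here. Low values of each library were whole multiples of 1 read, which gave back whole reads for 31047 of the 31047 genes above 0, and 7744768 to 16183655 reads a library. A gene was called whole where every library lay within 0.002 of a read of a whole number, with a tolerance rising with the count to at most 0.05, or 0.1 for the few genes with very many reads. Of the 31047 genes, 17539 were above 0 in all libraries and lay within 0.000484 of a read, and for the 2520 genes above 0 in 1 library wholeness holds by construction. Mitochondrial RNR2 took 41.0% to 48.3% of the TPM, so TPM was divided by median-of-ratios factors from 14918 genes (scaled TPM).

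The 16122 genes whose mean reached 1 TPM were tested with limma 3.58.1 in R 4.3.3 (lmFit, eBayes with trend) on log2(scaled TPM + 1), with all 4 groups in 1 fit and Benjamini-Hochberg adjustment over all genes in each of 6 comparisons (threshold 0.05). A fold change on this scale understates that of low genes. The fit was tested on simulated data, where 192 of 200 changed genes of 15423 were recovered for HPLM/B27 against RPMI_glcM/B27 with 10 false calls. The changed genes had a median estimated log2 change of 0.90 in either direction, and the simulated wells varied independently. Members differed by only −0.42 to 0.44 in that comparison, so the simulation does not show how often changes of their size would be found. Same-numbered libraries correlated between −0.17 and 0.46 in their deviations, and in no comparison were all pairs above 0.1, so numbers were not taken as pairs. Replicates 2 and 4 of each Day 30 medium did correlate best, among the Day 16 libraries, with the one of their own number. Alternatives were TPM as deposited or without mitochondrial and ribosomal RNA genes, a pseudocount of 0.1, other filters, only the groups compared, a replicate block, RNR1 as a covariate, limma-voom on recovered reads (mean of at least 10) and each library left out. Leaving out Day 30 RPMI/B27 replicates 3 and 4, or Day 16 replicate 2 and Day 30 RPMI/B27 replicate 3, without or with HPLM/B27 replicate 4, was chosen after seeing the data.

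The members, lists and tests were chosen with earlier results of these data known. Values in every library are given for members past the threshold between Day 30 media and for the 4 with the largest change from Day 16, and other members are given by range and counts. At most 3 genes of a list outside the members are named by the smallest adjusted p between Day 30 media, and NR1H3 is added for its direction. Values were computed in Python 3.11.15 (pandas 2.3.3, numpy 2.4.6). Intervals are 95%.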

Additional observations from a re-analysis of the deposited data

Results flagged for a closer look

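A library stood far from the other 3 of its group for 11 of 124 combinations of a member and a group, by Dixon's test at its 95% critical value, where chance gives about 5% of groups. HPLM/B27 replicate 2 was high for 4 of them, with HMGCS1 at 93.8 scaled TPM (the others 57.7 to 62.7), MSMO1 at 32.6 (17.7 to 19.0), FASN at 24.2 (16.9 to 17.9) and FADS2 at 29.7 (21.4 to 22.4). Day 30 RPMI/B27 replicate 3 was high for MVK at 4.19 (2.19 to 2.37) and low for SREBF1 at 4.99 (8.38 to 8.92), and replicate 4 of that group was high for INSIG2 at 29.6 (25.3 to 25.8). Day 16 replicate 2 was low for SQLE at 25.0 (44.9 to 47.8), and Day 16 replicate 3 high for TM7SF2 at 39.5 (36.0 to 36.2). In RPMI_glcM/B27, replicate 4 was low for ACAT2 at 8.02 (9.47 to 9.62) and replicate 3 high for FADS2 at 18.4 (16.7 to 16.9).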

How the results depend on the processing

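Of the 54 calls of members, 33 were kept under every alternative and with any single library left out, and none changed direction. The number of members past the threshold was 12 for Day 30 against Day 16 in RPMI/B27, beside 17.5% of all genes tested. It became 22 on the deposited TPM (19.9% of all genes) and 21 on TPM without mitochondrial and ribosomal RNA genes (3845 of 16115 genes). Without the 2 libraries apart in smooth muscle genes it became 22 (23.8%), and 23 without these and HPLM/B27 replicate 4 (23.8%). For HPLM/B27 against Day 16 it was 13 (25.3% of all genes) and became 22 on the deposited TPM (25.4%) and 21 without mitochondrial and ribosomal RNA genes. For RPMI_glcM/B27 against RPMI/B27 it was 7 (12.1%) and became 0 on the deposited TPM (2.2%). It was 3 without mitochondrial and ribosomal RNA genes and 3 with only the 2 groups in the fit. For HPLM/B27 against RPMI/B27 it was 5 (12.9%) and became 3 on the deposited TPM (2.41%). It was 3 without mitochondrial and ribosomal RNA genes and 8 without the 2 libraries (18.9%). The scaling moved these counts by construction. The 2 libraries apart in smooth muscle genes were also apart in the members. Over the 18 mevalonate and sterol genes the median deviation was −0.23 in Day 16 replicate 2 and 0.34 in Day 30 RPMI/B27 replicate 3. Leaving them out widens the fall of most of these genes in RPMI/B27 and is no independent check. The cause of the other changes was not tested. With 1 library left out the counts were 9 to 17, 13 to 16 and 11 to 19 for RPMI/B27, RPMI_glcM/B27 and HPLM/B27 against Day 16, 3 to 7 and 5 to 7 for RPMI_glcM/B27 and HPLM/B27 against RPMI/B27, and 0 to 2 for HPLM/B27 against RPMI_glcM/B27. With a replicate block, whose numbers were not taken as pairs, they were 12, 15, 14, 6, 5 and 0 in the same order. Where no share of all genes stands beside a count in this section, the count does not set the members apart from other genes. Outside the members, FNTA, a farnesyltransferase subunit, changed direction for HPLM/B27 against Day 16 (0.31 on scaled TPM, -0.020 on the deposited TPM). Depth limits LSS, MVK and ACACA, with at most 92, 104 and 32 reads a library.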
